A study of Mus musculus with 3 samples.

Results

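The clustered histone genes are the genes whose symbols begin with Hist1h, Hist2h, Hist3h or Hist4h, and every gene of the count table with such a symbol was taken. They were 48 of the 20937 genes listed. By histone type there were 5 genes of linker histone H1, 14 of H2A, 10 of H2B, 7 of H3 and 12 of H4. By cluster, 39 lay in Hist1 on chromosome 13, 5 in Hist2 on chromosome 3, 3 in Hist3 on chromosome 11 and 1, Hist4h4, stood alone on chromosome 6. GENCODE M21, the annotation used for positions, lengths and 3' ends on the mouse build GRCm38, holds 70 genes with such symbols. The other 22, among them the testis-specific Hist1h1t, Hist1h2aa and Hist1h2ba, were not analysed here. The table holds only genes with at least 1 count in every library.

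RNA was sequenced from the whole enamel organ of the incisor, the epithelium that lays down enamel, in male mice 4 weeks old. The Stim1 cKO mouse was Stim1 fl/fl Cre+, the Stim1 HT mouse Stim1 fl/wt Cre+ and the Stim1 Ctrl mouse Stim1 fl/fl Cre-, so all 3 carried floxed Stim1 and both Stim1 cKO and Stim1 HT carried Cre. The Cre was AmelX-iCre, driven by the amelogenin promoter, so that deletion is limited to cells in which this promoter is active, the ameloblasts, while the dissected organ also holds other cells. STIM1 is the sensor of calcium in the endoplasmic reticulum that opens store-operated calcium channels. The 3 libraries are called cKO, HT and Ctrl here, and where 3 values follow each other they are in that order. Each genotype had 1 library, so the spread between mice of the same genotype is not known, and whether tissue of several mice was combined is not given in the sources used here.

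Histones are the proteins around which DNA is wound: H2A, H2B, H3 and H4 form the core of the nucleosome, and H1 binds the DNA between nucleosomes. Most genes of the clusters are transcribed in S phase, lack introns, and give mRNA that ends just after a conserved stem-loop instead of a poly(A) tail. The stem-loop is bound by SLBP, and the U7 snRNP, with LSM10 and LSM11, directs the cut behind it. Some genes of the clusters also give polyadenylated mRNA, above all in cells that have stopped dividing, and 8 of the members are known for it: Hist1h1c, Hist1h2bc, Hist1h2be, Hist1h2ac, Hist2h2be, Hist3h2a, Hist3h2ba and Hist4h4. This matters for how the values are read, because the methods of the study describe enrichment of polyadenylated RNA before sequencing. The labels name a different kit, so how far mRNA without a tail was captured is not settled here.

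The stem-loops are shown because they mark the mRNA ends without a poly(A) tail, and because Hist2h2be, the member with the largest excess of CPM in cKO, had none in the window searched. The 150 bases after the stop codon of every annotated transcript were searched on the transcript's strand for the consensus of the histone stem-loop, of 16 bases, with a stem of 6 base pairs and a loop of 4 bases. Of the members, 38 have at least 16 annotated bases after the stop codon, and 35 of these hold a match, 24 to 58 bases behind the stop codon. Of the 20943 other genes searched, 13 (0.0621%) hold it. Of those, 11 are clustered histone genes that were not analysed here and the other two are H2afx and H2bfm. Over all genes searched, members included, the share was 0.229%. The following lines give the stem-loops of the most counted members that have one and of the 2 leading H4 genes outside Hist1, read from the GENCODE M21 transcripts, 5' to 3', with the stem-loop in capitals and 5 flanking bases on each side.
Hist1h1c: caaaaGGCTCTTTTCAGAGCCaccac
Hist3h2a: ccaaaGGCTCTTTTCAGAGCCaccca
Hist3h2ba: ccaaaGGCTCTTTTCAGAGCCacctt
Hist1h2be: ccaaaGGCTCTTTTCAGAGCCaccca
Hist1h4i: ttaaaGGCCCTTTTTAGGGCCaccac
Hist1h4h: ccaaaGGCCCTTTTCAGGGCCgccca
Hist2h4: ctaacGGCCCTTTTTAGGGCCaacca
Hist4h4: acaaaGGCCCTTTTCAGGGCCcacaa

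In GRCm38 these lie at chr13:23739507-23739532 on the plus strand for Hist1h1c, chr11:58955167-58955192 on the plus strand for Hist3h2a, chr11:58949344-58949369 on the plus strand for Hist3h2ba and chr13:23585526-23585551 on the minus strand for Hist1h2be. For the H4 genes they lie at chr13:22040961-22040986 on the minus strand for Hist1h4i, chr13:23531453-23531478 on the plus strand for Hist1h4h, chr3:96262934-96262959 on the minus strand for Hist2h4 and chr6:136803993-136804018 on the minus strand for Hist4h4. All are in the 3' UTR. The 35 matches fell into 6 distinct sequences, which followed the histone type. The sequence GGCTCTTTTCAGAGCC was held by 20 members of the H1, H2A, H2B and H3 types, and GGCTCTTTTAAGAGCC by another 4, Hist1h2bb, Hist1h3c, Hist1h3e and Hist1h3f. None of the 11 H4 genes with a match began with GGCTC, while all 24 matches of the other types did. Among the H4 genes, 6 held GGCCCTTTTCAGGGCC, 2 held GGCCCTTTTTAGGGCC, 2 held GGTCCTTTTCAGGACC, and Hist1h4a held GGCCCTTCTCAGGGCC.

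The members that were searched and held no match were Hist1h1a, Hist1h2bc and Hist2h2be. Hist1h1a, an H1 gene, has 48 annotated bases after its stop codon, and its nearest stretch differs from the consensus at 5 positions. Hist1h2bc, an H2B gene, is annotated with 2 exons, and its transcript is spliced 9 bases after the stop codon, so that most of its 742 bases of 3' UTR come from a downstream exon. Its nearest stretch differs from the consensus at 6 positions. The genomic sequence directly behind its stop codon, past the splice, was not searched. Hist2h2be, also an H2B gene, has 1 exon and 2192 bases after its stop codon. Its nearest stretch in the window differs at 5 positions, and its whole transcript holds 0 matches. A missing match says only that these letters are not in the window.

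The counts were those the authors deposited, and they summed to between 20216507 and 28265960 per library. They were scaled with edgeR's TMM factors, and levels are given as TMM-scaled CPM, that is, relative to the scaled library size. The limit of detection was set at 3 counts, or 0.117 to 0.152 CPM. Stim1, the targeted gene, was at 72.8 CPM in cKO, 129 CPM in HT and 186 CPM in Ctrl. The labels name ameloblasts as the cell type, and the summed level of 7 ameloblast markers was 4457 CPM in cKO against 31540 and 23270 CPM in HT and Ctrl, with 4 of the 7 below both controls. Markers of other tissues differed between the libraries too. The summed level of 6 skeletal muscle markers was 3448 CPM in cKO against 19280 and 27860 CPM, that of 4 cartilage markers 69.4 against 486 and 663 CPM, that of 6 fibroblast and bone markers 34810 against 47680 and 74230 CPM, that of 4 erythroid markers 779 against 1854 and 1304 CPM, and that of 4 neutrophil markers 47.3 against 170 and 147 CPM. Of these lists, 6 of 6 muscle, 3 of 4 cartilage, 5 of 6 fibroblast and bone, 4 of 4 erythroid and 4 of 4 neutrophil genes were below both controls. Of the retina markers, Gnat1 had 4294 counts in cKO, 2 in HT and 5 in Ctrl, and Sag had 2628, 23 and 12. The part of these differences in the histone values was not tested. In such bulk samples, fewer cells of a type and less RNA per cell cannot be told apart.

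The histone counts were few and lay in a handful of genes. The 48 members together held 4846 counts in cKO, 5179 in HT and 6615 in Ctrl, which is 0.0225%, 0.0256% and 0.0234% of each library. In the 3 libraries, 19, 15 and 16 members had 3 counts or fewer, and 26 members stayed under 10 counts in every library. Only 10 members reached 10 counts in all 3 libraries. Hist1h1c, Hist1h2bc, Hist2h2be, Hist3h2a and Hist3h2ba, all of them on the list of members known for polyadenylated mRNA, held 4398 of the member counts in cKO, 4663 in HT and 5981 in Ctrl. The other 43 members shared between 448 and 634 counts per library.

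**Figure D1:**
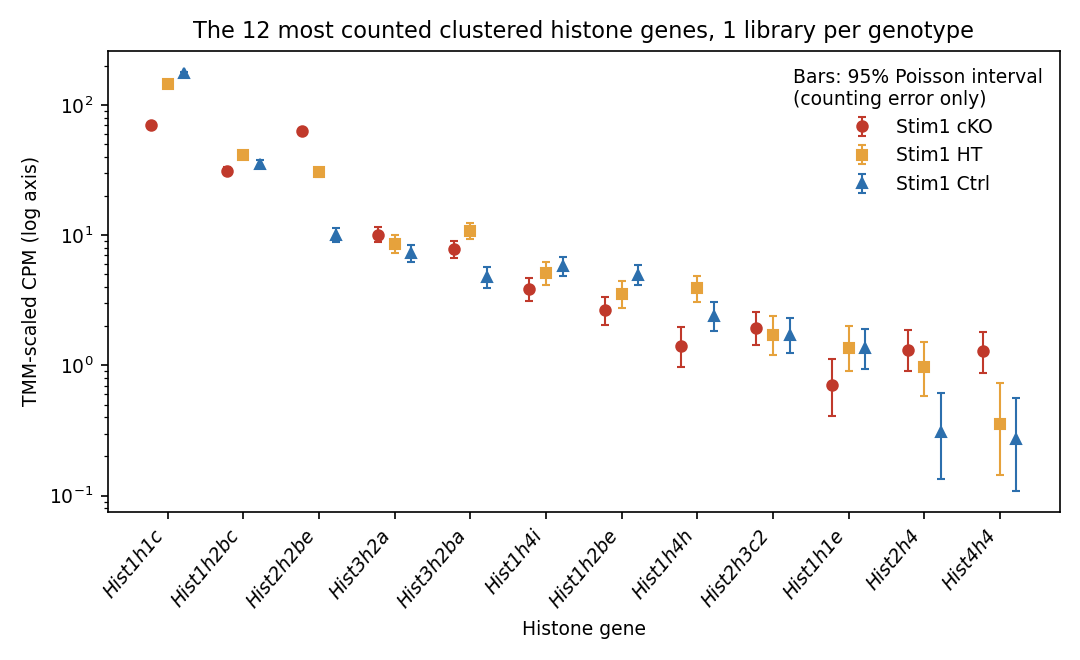
TMM-scaled CPM on a log axis of the 12 members with the highest mean level, with 1 point per library and bars for the exact 95% Poisson interval, which covers counting error only. Hist1h1c is lowest in cKO at 69.9 CPM, whereas Hist2h2be is highest there at 62.8 CPM, with HT between the other libraries for both.

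Hist1h1c, which codes for the linker histone H1.2, had the highest level of all members and its own lowest level in cKO. The gene spans chr13:23738808-23740367 and had 1693 counts in cKO, 2870 in HT and 4503 in Ctrl, or 69.9, 146 and 175 CPM. The cKO library was thus below both controls, 2.08-fold below HT and 2.502-fold below Ctrl, while HT was 1.20-fold below Ctrl. Against the grouped controls the log2 fold change was -1.20 (edgeR quasi-likelihood adjusted p = 0.0682), not under the threshold of 0.01. With DESeq2 the log2 fold change was -1.21 (SE 0.337) and the adjusted p 0.00382, so that the call depends on the tool. Over all alternatives its adjusted p ranged from 0.00382 to 0.0895.

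Hist2h2be, which codes for an H2B protein known from olfactory neurons, had its highest level in cKO. The gene spans chr3:96221119-96223738 and had 1520 counts in cKO, 601 in HT and 259 in Ctrl, or 62.8, 30.5 and 10.1 CPM. All 3 libraries stood apart, and the step between the controls was the larger: HT was 3.03-fold above Ctrl, and cKO 2.06-fold above HT. The log2 fold change of cKO against the grouped controls was 1.63 (edgeR adjusted p = 0.145), and DESeq2 (SE 0.630) gave an adjusted p of 0.0529, so neither passed. It was 1.04 without Ctrl and 2.64 without HT. None of its words of read length occurs in an annotated transcript of another gene, and shorter words, as in trimmed reads, were not examined.

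Hist1h2bc, which codes for another H2B, differed little. It had 751 counts in cKO, 811 in HT and 910 in Ctrl, or 31.0, 41.2 and 35.4 CPM. cKO was 1.33-fold below HT and 1.14-fold below Ctrl. The log2 fold change was -0.30 (edgeR adjusted p = 0.440). Its log2 ratio of HT to Ctrl was 0.22, so that the controls stood about as far apart as cKO stood from Ctrl (-0.19). From HT, cKO stood further away (-0.41).

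The ratio of both H2B genes within a library does not depend on the scaling between libraries. It may depend on how shared reads were counted, which is not known. Of the words of read length of Hist1h2bc, 21.6% also occur in transcripts of other genes. For each count of Hist1h2bc there were 2.02 counts of Hist2h2be in cKO (exact 95% interval 1.85 to 2.21), 0.741 in HT (0.666 to 0.825) and 0.285 in Ctrl (0.247 to 0.327). The intervals of the 3 libraries do not overlap, but they cover counting error only. Hist2h2be has 2620 exonic bases and Hist1h2bc 1156. Per kilobase of exon, the ratio of Hist2h2be to Hist1h2bc was 0.893 in cKO, 0.327 in HT and 0.126 in Ctrl, so Hist1h2bc remained the higher of the pair in all 3. Against Hist1h1c, Hist2h2be had 0.898 counts per count in cKO, 0.209 in HT and 0.0575 in Ctrl.

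**Figure D2:**
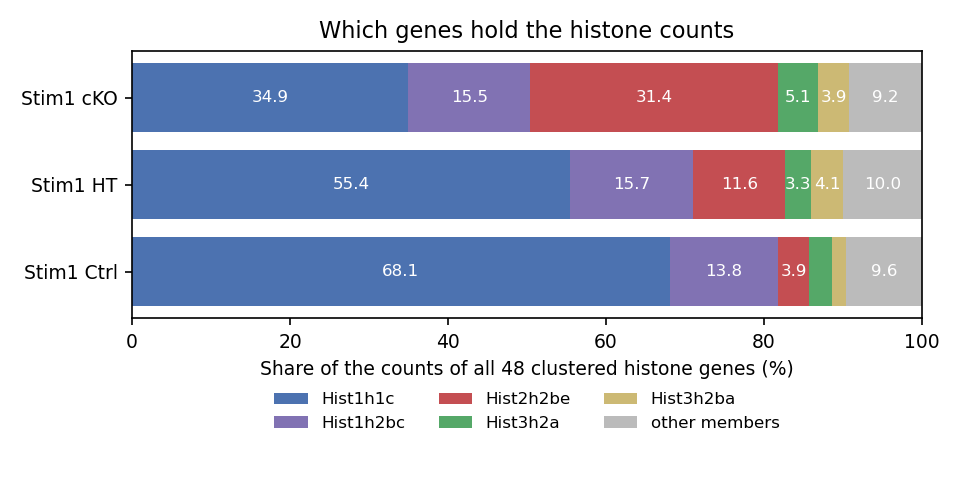
Share of the counts of all 48 members held by each of the 5 most counted genes and by the other members, in percent, with 1 bar per library. Hist1h1c held 34.9% in cKO, 55.4% in HT and 68.1% in Ctrl, and Hist2h2be 31.4%, 11.6% and 3.92%, whereas Hist1h2bc stayed between 13.8% and 15.7%.

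The genes were also ranked by level per kilobase of exon, because counts and CPM do not allow for the length of a gene. In Ctrl the order was Hist1h1c at 112 CPM per kilobase, Hist1h2bc at 30.6, Hist1h4i at 7.96, Hist3h2ba at 7.72, Hist1h4h at 5.13, Hist2h2be at 3.84 and Hist3h2a at 3.39. In cKO it was Hist1h1c at 44.8 CPM per kilobase, Hist1h2bc at 26.8, Hist2h2be at 24.0, Hist3h2ba at 12.7, Hist1h4i at 5.29, Hist3h2a at 4.72 and Hist1h4h at 2.99. Hist2h2be was the sixth of these 7 in Ctrl and the third in cKO. Hist1h1c and Hist1h2bc kept the first places in both.

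Hist3h2a and Hist3h2ba are neighbours in the small Hist3 cluster and code for H2A and H2B. Hist3h2a had 245 counts in cKO, 169 in HT and 187 in Ctrl, or 10.1, 8.58 and 7.27 CPM. Its log2 fold change was 0.35 (edgeR adjusted p = 0.584), and its log2 ratio of cKO to HT, 0.24, had a counting interval that included 0 (-0.05 to 0.53). Hist3h2a shares 708 exonic bases with Trim17 on the same strand, so its counts are uncertain. Hist3h2ba had 189, 212 and 122 counts, or 7.81 CPM in cKO, 10.8 in HT and 4.74 in Ctrl, with cKO between the controls. The controls were 2.27-fold apart for Hist3h2ba, and its log2 fold change was 0.01 (edgeR adjusted p = 0.990).

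By histone type, the H1 sum was lowest in cKO and the H2B sum highest there, with no test of either sum. The summed level of the 5 H1 genes was 71.3 CPM in cKO, 148 in HT and 178 in Ctrl, and 4 of the 5 were below both controls, with Hist1h1b between them. Almost all of this sum was Hist1h1c. The next, Hist1h1e, had 17, 27 and 35 counts, with a log2 fold change of -0.95 (edgeR adjusted p = 0.349), and Hist1h1d had 5, 11 and 18 counts, with a log2 fold change of -1.59 (edgeR adjusted p = 0.244). Hist1h1e shares 496 exonic bases with Hist1h2be on the same strand. Hist1h1a had 6, 6 and 9 counts and Hist1h1b 4, 5 and 4, close to the limit of detection in every library.

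The 10 H2B genes summed to 105 CPM in cKO, 87.2 in HT and 56.3 in Ctrl, but only 2 of them were above both controls. Without Hist2h2be the H2B sum was 42.1, 56.7 and 46.2 CPM, with cKO below both controls. This depended on the scaling. With library size scaling cKO lay between the controls, at 47.4 CPM against 55.2 and 42.1. With upper-quartile scaling it also lay between them, at 44.6 CPM against 56.5 and 43.7. Hist1h2be, the fourth of the H2B genes, had 64, 70 and 127 counts, with a log2 fold change of -0.68 (edgeR adjusted p = 0.438). Hist1h2bg had 3 counts in cKO, 13 in HT and 12 in Ctrl. The last 4, Hist1h2bb, Hist1h2bf, Hist1h2bl and Hist1h2bp, had 1 to 4 counts in every library, and the pseudogene Hist3h2bb-ps had 3 to 8.

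The H2A, H3 and H4 sums differed less between the libraries. The 14 H2A genes summed to 12.2 CPM in cKO, 11.8 in HT and 9.48 in Ctrl, most of it Hist3h2a, and 5 were above both controls, 5 below and 4 between. The 7 H3 genes summed to 2.81, 3.76 and 3.38 CPM, and the log2 ratio of cKO was -0.42 to HT (counting interval -0.92 to 0.08) and -0.27 to Ctrl (-0.75 to 0.21), a difference that was not detectable at this depth. Hist2h3c2, the leading H3 gene, had 47, 34 and 44 counts, and 60.4% of its words of read length also occur in transcripts of other genes. The 12 H4 genes summed to 9.05, 11.98 and 10.4 CPM, with 4 above both controls, 6 below and 2 between. With library size scaling the log2 ratios of cKO to Ctrl turned to 0.04 for the H3 sum and 0.11 for the H4 sum, so neither has a direction of its own.

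The H4 genes differed among themselves. Hist1h4i had 93 counts in cKO, 101 in HT and 149 in Ctrl, and Hist1h4h had 34, 77 and 62. Both were below both controls, with log2 fold changes of -0.51 and -1.16 (edgeR adjusted p = 0.517 and 0.275). Hist4h4, the H4 gene that lies alone, had 31 counts in cKO and 7 in each control. Its log2 fold change was 2.02 (edgeR unadjusted p = 0.0285, adjusted p = 0.117, DESeq2 adjusted p = 0.534). Only its count in cKO was high enough to bring Hist4h4 into the test, so these p-values support no direction. Hist2h4 had 32 counts in cKO, 19 in HT and 8 in Ctrl, a log2 fold change of 1.07 (edgeR adjusted p = 0.415). The log2 ratio of Hist2h4 between cKO and HT, 0.45, had a counting interval from -0.41 to 1.36. Among the 8 other H4 genes, Hist1h4j, with 13, 6 and 8 counts, was the one with the most.

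By cluster, the members of Hist1 were mostly below both controls and those of Hist2 above. In Hist1, 24 of 39 genes were below both controls, 8 above and 7 between, and the summed level was 114 CPM in cKO, 210 in HT and 232 in Ctrl. In Hist2, 4 of 5 genes were above both controls and 1, Hist2h2ab, between, and the sum was 66.6, 33.5 and 12.5 CPM, nearly all of it Hist2h2be. Of those above, only Hist2h2be was clear of counting error against HT. The counting intervals of the log2 ratio to HT included 0 in Hist2h3c2 (-0.50 to 0.85), Hist2h4 (-0.41 to 1.36) and Hist2h2aa2 (-1.2 to 2.9). Hist3 summed to 18.1, 19.5 and 12.3 CPM, with 1 of its 3 genes above both controls. With library size scaling, 23 Hist1 genes in place of 24 were below both controls, the Hist2 counts were the same, and the Hist3 sum of cKO turned from below HT to above it, with a log2 ratio of 0.10. Over all 20937 listed genes, 43.9% were above both controls and 40.3% below.

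The Hist1 genes form 3 patches, separated here by gaps of over 100 kb. The patch from 21715763 to 21833507 holds 12 of the genes, with a sum of 2.11 CPM in cKO, 1.98 in HT and 1.63 in Ctrl. Of these 12, 5 were above both controls, 2 below and 5 between. The patch from 22040636 to 22042944 holds Hist1h4i and Hist1h2ag, both below both controls. The patch from 23531050 to 23764406 holds 25 genes, with 20 below both controls, 3 above and 2 between, and a sum of 108, 202 and 225 CPM. Most genes of the Hist1 patches had under 10 counts, so the order of their libraries rests on few reads, and 15 of the 48 members share more than 50% of their words of read length with other genes, so the split of reads between them is uncertain.

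**Figure D3:**
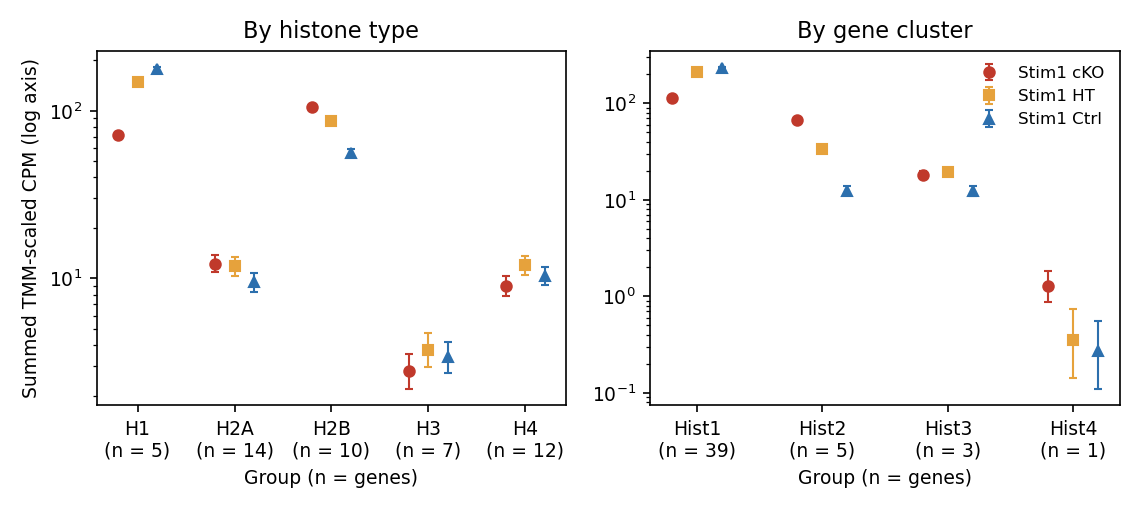
Summed TMM-scaled CPM on a log axis of the members by histone type (left) and by gene cluster (right), with 1 point per library and 95% Poisson intervals for counting error. The H1 and Hist1 sums are lowest in cKO, at 71.3 and 114 CPM, and the H2B and Hist2 sums highest there, at 105 and 66.6 CPM.

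Most of the histone counts lay in members with a long annotated 3' end, though not every such member had many. Of the members, 20 have at least 200 annotated bases after the stop codon, and these held 97.5% of the member counts in cKO, 96.2% in HT and 97.3% in Ctrl, most of it from the 5 most counted genes. Others with long ends had few, such as Hist1h4c with 503 bases and 4, 1 and 1 counts, and Hist1h4d with 822 bases and 3, 4 and 11 counts. The 28 with a shorter end, or none annotated, summed to 5.04 CPM in cKO, 10.1 in HT and 6.88 in Ctrl. Of these short-ended genes, 13 were below both controls, 7 above and 8 between, while over all listed genes 40.3% were below and 43.9% above. Hist1h4h, with 93 annotated bases after its stop codon, was the most counted of them, and Hist1h2ae, with 199 bases and 6, 12 and 11 counts, and Hist1h2bg, with 200 bases, lie at the limit on either side. Longer genes gather more counts at equal abundance, so the levels per kilobase are plotted against the length of the 3' end.

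**Figure D4:**
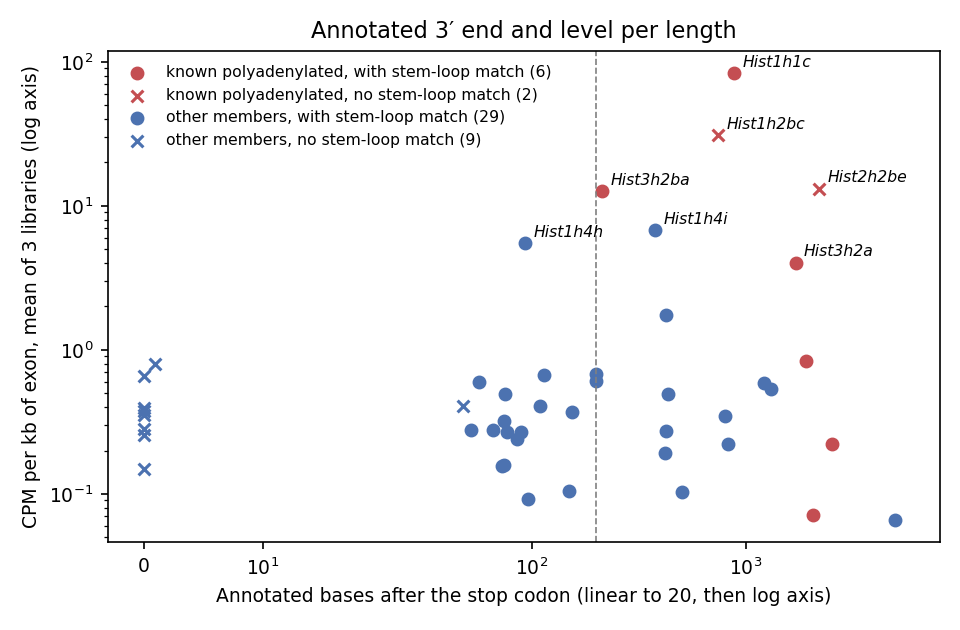
Mean level over the 3 libraries in CPM per kilobase of exon (log axis) against the annotated bases after the stop codon (linear to 20, then log), for the 46 members with an annotated stop codon. Red marks members known for polyadenylated mRNA, circles those with a stem-loop match, and the dashed line 200 bases: of the 7 labelled genes, 5 are red and only Hist1h4h lies left of the line.

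The 8 members known for polyadenylated mRNA held 92.8% of the member counts in cKO, 91.6% in HT and 92.5% in Ctrl, and of these 8, 3 were above both controls, 4 below and 1 between. All 8 have long annotated ends, from 213 bases in Hist3h2ba to 2515 in Hist4h4, and 6 of the 8 also hold a stem-loop match. They differed widely in level: Hist1h2ac, with 2058 bases after its stop codon, had 2, 5 and 5 counts. The share of this group was nearly the same in the 3 libraries, while its make-up shifted between Hist1h1c and Hist2h2be. The other 40 members summed to 14.5, 22.03 and 19.2 CPM, with 20 of the 40 below both controls, 11 above and 9 between. Over all listed genes, 40.3% were below and 43.9% above. Only 13 of these 40 members had more than 3 counts in all 3 libraries. RNA without a poly(A) tail was looked at through 135 listed small nuclear, small nucleolar and related RNAs. Their summed level was 144 CPM in cKO, 41.6 in HT and 39.6 in Ctrl, with 83 of the 135 above both controls and 25 below. Whether these counts come from RNA without a tail or from transcripts of other genes was not tested. The mitochondrially encoded genes made up 5.20%, 2.58% and 2.82% of the libraries. Their part in the histone values was not tested.

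The test across the table called no member. At an adjusted p under 0.01 and a fold change over 2, edgeR's quasi-likelihood test called 14 of 18702 genes tested (0.0749%) and 0 of the 19 members that had enough counts to be tested. At an unadjusted p under 0.05 it gave 31.9% of all genes and 3 of the 19 members, Hist1h1c, Hist2h2be and Hist4h4. DESeq2 at the first threshold called 5.92% of the 18702 genes higher and 4.71% lower in cKO, with genes that had no adjusted p counted as not called. Among the 19 members it called 0 higher and 1, Hist1h1c, lower. It gave no adjusted p to Hist1h1d, Hist1h2ae, Hist1h2ag, Hist1h2bg, Hist1h3c, Hist1h3d and Hist1h4j, so these could not be called. The median log2 fold change of the 19 tested members was -0.68, and that of all genes tested -0.01, but it was -0.30 for members averaging at least 50 counts and -0.43 without Ctrl. A gene enters the test only with enough counts in some library. Members such as Hist1h3c, with 3, 17 and 7 counts, and Hist1h2bg, with 3, 13 and 12, were low in cKO and higher in the controls. Hist4h4, with 31, 7 and 7 counts, and Hist1h4j, with 13, 6 and 8, entered only through cKO. The 19 thus do not stand for all 48 and their median supports no direction.

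Counted by size alone, over all 20937 listed genes, 4 of the 48 members were over 2-fold higher in cKO than in both controls, against 19.2% of all genes, and 9 were over 2-fold lower, against 8.21%. Both counts depend on each control: without HT they were 9 and 13, and without Ctrl 5 and 19. The 4 were Hist2h2be, Hist4h4, Hist1h4c and Hist1h2ak. Hist1h4c, with 4 counts against 1 and 1, and Hist1h2ak, with 5 against 1 and 2, rest on the fewest reads. The 9 were Hist1h1c, Hist1h1d, Hist1h2ac, Hist1h2af, Hist1h2ag, Hist1h2bg, Hist1h3c, Hist1h3e and Hist1h4a, and all but Hist1h1c and Hist1h1d had 3 counts or fewer in cKO. Among genes averaging at least 50 counts, 8 of which were members, 1 member, Hist2h2be, was over 2-fold higher than both controls, against 14.3% of the genes, and 1, Hist1h1c, over 2-fold lower, against 8.36%. For Hist1h1c this depends on the scaling, since its log2 fold change was -0.94 with library size scaling in place of TMM.

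The summed level of all 48 members was 200.2 CPM in cKO, 263 in HT and 257 in Ctrl. Its log2 ratio was -0.39 to HT and -0.36 to Ctrl, with the controls 0.03 apart. With library size scaling, which moved the median of all genes to 0.25, these ratios were -0.18 and -0.05. The near equality of the controls is made of opposite differences, since Hist1h1c was lower and Hist2h2be higher in HT than in Ctrl. Without Hist2h2be the log2 ratio of the sum was -0.76 to HT and -0.85 to Ctrl. Without Hist1h1c and Hist2h2be the sum was 67.5, 86.7 and 72.01 CPM, a log2 ratio of -0.36 to HT and -0.09 to Ctrl, the latter with a counting interval from -0.19 to 0.003 and a value of 0.21 with library size scaling.

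The controls were compared as well, because they give the only spread the test has. Of the 8 members averaging at least 50 counts, 2, Hist2h2be and Hist3h2ba, were over 2-fold apart between HT and Ctrl, against 8.16% of such genes. Over all listed genes the count was 16 of 48 members, most of them at low counts, against 15.9%. In the order of intact Stim1 alleles, from Ctrl over HT to cKO, Hist2h2be and Hist3h2a increased at each step, Hist1h1c, Hist1h4i and Hist1h2be decreased at each step, and Hist1h2bc, Hist3h2ba and Hist1h4h did neither. Counting intervals of the log2 ratios included 0 at both steps for Hist3h2a and Hist1h4i, and between HT and cKO for Hist1h2be (-0.94 to 0.08). The orders of these genes are thus within counting error. With 1 library at each step, all these orders are a description.

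The genes that make, carry or replace clustered histones were taken from lists of their own. Over all listed genes, 40.3% were below both controls and 43.9% above. Of 14 genes of histone mRNA transcription and 3' processing, 9 were below both controls, 4 above and 1 between, with a median log2 fold change of -0.33. None passed edgeR's threshold, 3 had an unadjusted p under 0.05 in the same test, against 31.9% of all genes tested, and DESeq2 called 1, higher, against 5.92%. That gene was Lsm11, a protein of the U7 snRNP, at 46.7 CPM in cKO, 14.5 in HT and 18.0 in Ctrl, with a log2 fold change of 1.52 (adjusted p = 0.0356 in edgeR and 0.00504 in DESeq2). Slbp, the stem-loop binding protein, lay on the other side, at 20.9, 44.4 and 47.2 CPM, with a log2 fold change of -1.14 (adjusted p = 0.0523 in edgeR and 0.0215 in DESeq2). Npat, which activates the clusters in S phase, was at 19.5, 23.1 and 30.04 CPM.

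Of 11 replication-independent variants, whose genes lie outside the clusters, 9 were below both controls and 2 above, with a median log2 fold change of -0.70. Over all listed genes, 40.3% were below and 43.9% above. H2afv, H3f3b and H3f3a lay close to Ctrl, with log2 ratios of cKO to Ctrl of -0.03, -0.04 and -0.16. The order under other scalings is not given for this list. None of the 11 passed edgeR's threshold or that of DESeq2, and 7 had an unadjusted p under 0.05 in edgeR's test, against 31.9% of all genes tested. H1f0, the linker histone of resting cells, was at 214 CPM in cKO, 388 in HT and 383 in Ctrl. H2afx, the variant gene that also holds a stem-loop match, was at 36.1, 65.4 and 67.8 CPM, and H2afy, which codes for macroH2A, at 167, 93.2 and 84.8 CPM. H3f3a and H3f3b, the genes of H3.3, had log2 fold changes of -0.48 and -0.21. Of 7 histone chaperones, 6 were below both controls and 1 above, against 40.3% and 43.9% of all listed genes, with a median of -0.70. Nasp lay close to both controls, with log2 ratios of -0.14 to HT and -0.12 to Ctrl. For these 7, edgeR called 0, and 6 had an unadjusted p under 0.05, against the same 31.9%. DESeq2 called 1 of the 7 lower, against 4.71% of all genes tested. It was Chaf1b, a subunit of chromatin assembly factor 1, at 6.78, 20.7 and 21.5 CPM.

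All 19 genes of DNA replication and division were below both controls, against 40.3% of all listed genes. Tyms was nearly level with Ctrl, at 26.11, 31.73 and 26.85 CPM. The order under other scalings is not given for this list. The summed level of the 19 genes was 520 CPM in cKO, 1216 in HT and 1527 in Ctrl. Their log2 fold changes ran from -2.36 to -0.17, with a median of -1.47. edgeR called 0 of them, 17 had an unadjusted p under 0.05 in the same test, against 31.9% of all genes tested, and DESeq2 called 13 lower, against 4.71%. Mki67, a marker of cycling cells, was at 68.6, 167 and 252 CPM, and Ccna2, the cyclin of S phase, at 26.8, 79.6 and 104 CPM. Hist1h4h and Hist1h4i, the most counted members not known for polyadenylated mRNA, had log2 fold changes of -1.16 and -0.51 (edgeR adjusted p = 0.275 and 0.517). The next of this kind by mean level, Hist2h3c2, Hist1h1e and Hist2h4, had log2 fold changes of 0.18, -0.95 and 1.07. These members thus had no common direction. The difference between the lists and the members was not tested, and all use the same 3 libraries.

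**Figure D5:**
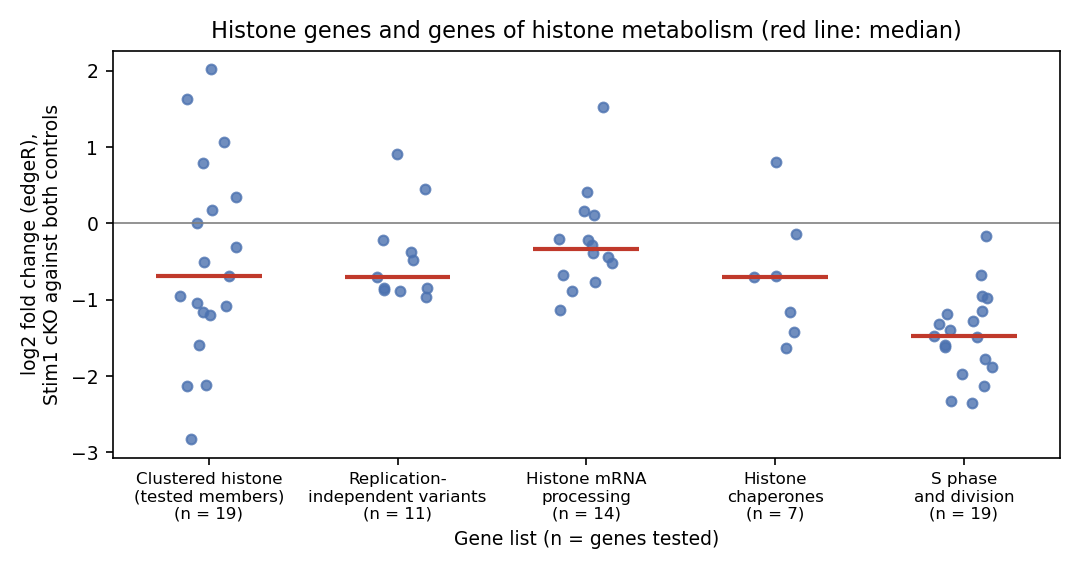
Log2 fold change of cKO against the grouped controls (edgeR) for each tested gene of the members and of 4 further lists, with the median as a red line. The replication and division genes all lie below 0, with a median of -1.47, whereas the 19 tested members spread from well below 0 to 2.02 in Hist4h4. Some members passed the filter on low counts only through the controls, and others, Hist4h4 among them, only through cKO.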

How the data were processed

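According to the methods, poly(A)-enriched RNA had been sequenced in paired reads, which were checked with FastQC, trimmed and aligned with STAR. The deposited values are raw counts per gene symbol that the authors had not normalized. The genome build, annotation, counting tool and strand setting are not given in the sources used here. The methods name a directional NEBNext kit and the labels a SMARTER kit.

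The test set cKO against HT and Ctrl taken as 1 control group, the grouping of the study, with edgeR 4.0.16 in R 4.3.3: TMM factors, filterByExpr (18702 genes), the quasi-likelihood test and Benjamini-Hochberg adjustment over all genes tested. Calls needed an adjusted p under 0.01 and over 2-fold change. The common dispersion was 0.106, with 1 residual degree of freedom, from the difference between the controls. DESeq2 1.42.0 was the main alternative. Intervals were exact Poisson or binomial at 95%, for counting error only.

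All 48 symbols were found in GENCODE M21 (GRCm38), from whose transcripts stem-loops, 3' ends and the share of words of read length found in other genes were read with Python 3.11.15. The members and gene lists were chosen with earlier results of these data known. Named in full were the 10 members with the highest mean level, those averaging at least 50 counts, and the 8 known for polyadenylated mRNA. Lower members were named by type and cluster. A gene of the marker lists is not reported here.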

Additional observations from a re-analysis of the deposited data

How the results depend on the processing

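Of 88 alternatives for the 10 most counted members, 86 kept the sign of the log2 fold change. The exceptions were both for Hist3h2ba, which changed from 0.013 to -0.018 without the filter on low counts and, with a control left out, lay between -0.46 (without Ctrl) and 0.72 (without HT). With DESeq2, 1 member, Hist1h1c, was called lower instead of 0. The 4 members over 2-fold higher than both controls became 1 in a fit of the genes averaging at least 50 counts, and the 9 over 2-fold lower became 0 there, since the TMM factors recomputed over those genes put Hist1h1c under 2-fold against HT. Leaving out a control gave 5 (without Ctrl) to 9 (without HT) members higher and 13 (without HT) to 19 (without Ctrl) lower. The 16 members over 2-fold apart between the controls became 2 at an average of at least 50 counts.

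The median log2 fold change of -0.68 was -0.42 with library size scaling, which moved the median of all genes to 0.25, -0.30 at an average of at least 50 counts, and from -0.78 without HT to -0.43 without Ctrl. The log2 ratio of the summed level, -0.38, was -0.25 with upper-quartile scaling, -0.12 with library size scaling, -0.41 without the filter, -0.28 at an average of at least 50 counts and, added after the values were seen, -0.80 without Hist2h2be. The cause of these shifts was not tested. The share of counts in members with long 3' ends, 97.0% over the 3 libraries together, was 90.5% with a limit of 500 bases, and Hist1h2be was at 1.97 instead of 1.11 CPM per kilobase in Ctrl when its longest transcript was used. No paired analysis was possible because each genotype had 1 library. With 1 library per genotype no value has a replicate check.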
